A study of Mus musculus with 16 samples.

Results

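The core circadian clock of the mouse kidney was described here through 10 genes, Arntl, Clock, Npas2, Per1, Per2, Per3, Cry1, Cry2, Nr1d1 and Nr1d2. They were taken by symbol from a table of 13430 genes, and all 10 were found in it. RNA came from a mid-kidney slice 3 mm thick, taken from female mice of the C57BL/6 strain at an age of 2 to 3 months. The 4 groups, each of 4 animals with 1 library per animal, were IRR knockout mice that drank 250 mM sodium bicarbonate at pH 8.5 for 7 days, wild-type mice given the same drink, IRR knockout mice that drank plain water, and wild-type mice that drank plain water. Insrr encodes IRR, a relative of the insulin receptor that responds to alkaline extracellular pH. The knockout animals are labelled IRR (-/-), with no promoter or cell type named, and all mice had fasted for 12 h with free access to their drink. No clock time of collection, litter, sequencing batch or date is given, so the hour of the day at which each kidney was taken is not known. A batch that followed genotype or drink cannot be told apart from it.

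The clock of mammalian cells is a daily feedback loop of transcription. BMAL1, the product of Arntl, pairs with CLOCK or with its paralog NPAS2 and drives genes that carry E-box elements, among them the Per, Cry and Nr1d genes. The PER and CRY proteins return to the nucleus and repress BMAL1 and its partner, while REV-ERB alpha and beta, the products of Nr1d1 and Nr1d2, repress Arntl and Npas2 through ROR elements. In tissues with a running clock, Arntl and Npas2 RNA therefore peak at roughly the opposite time of day to Nr1d1 and to the clock output gene Dbp. In the kidney the clock is known for its daily control of sodium, water and acid handling along the tubule.

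The libraries had kidney identity. The summed RPKM of 2 thick limb markers was 858 to 1351, and that of 2 podocyte markers was 27.2 to 39.99. Of the 4 adrenal markers, Star was in the table and did not exceed 2.27 RPKM, and neither lymph node marker was in it. Of the 4 adipose markers, 3 were in the table and summed to 66.0 to 569 RPKM. Insrr was at 3.31 to 3.71 RPKM in knockout and 4.20 to 6.50 RPKM in wild-type kidneys on bicarbonate, and at 3.338 to 4.11 RPKM in knockout and 4.82 to 6.73 RPKM in wild-type kidneys on water, so its RNA was reduced but still read in the knockout. The third wild-type library on bicarbonate stood apart: its 6 proximal tubule markers summed to 2253 RPKM, against 8610 to 10948 RPKM in the other 3 of its group, a gap carried by Kap, an abundant proximal tubule protein, at 742 RPKM against 7148 to 9256 RPKM. Between 103 and 152 genes per library were listed at exactly 0, including 2 to 6 genes per library that had at least 1 RPKM in all other libraries, so a single 0 can be a failed estimate.

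**Figure D1:**
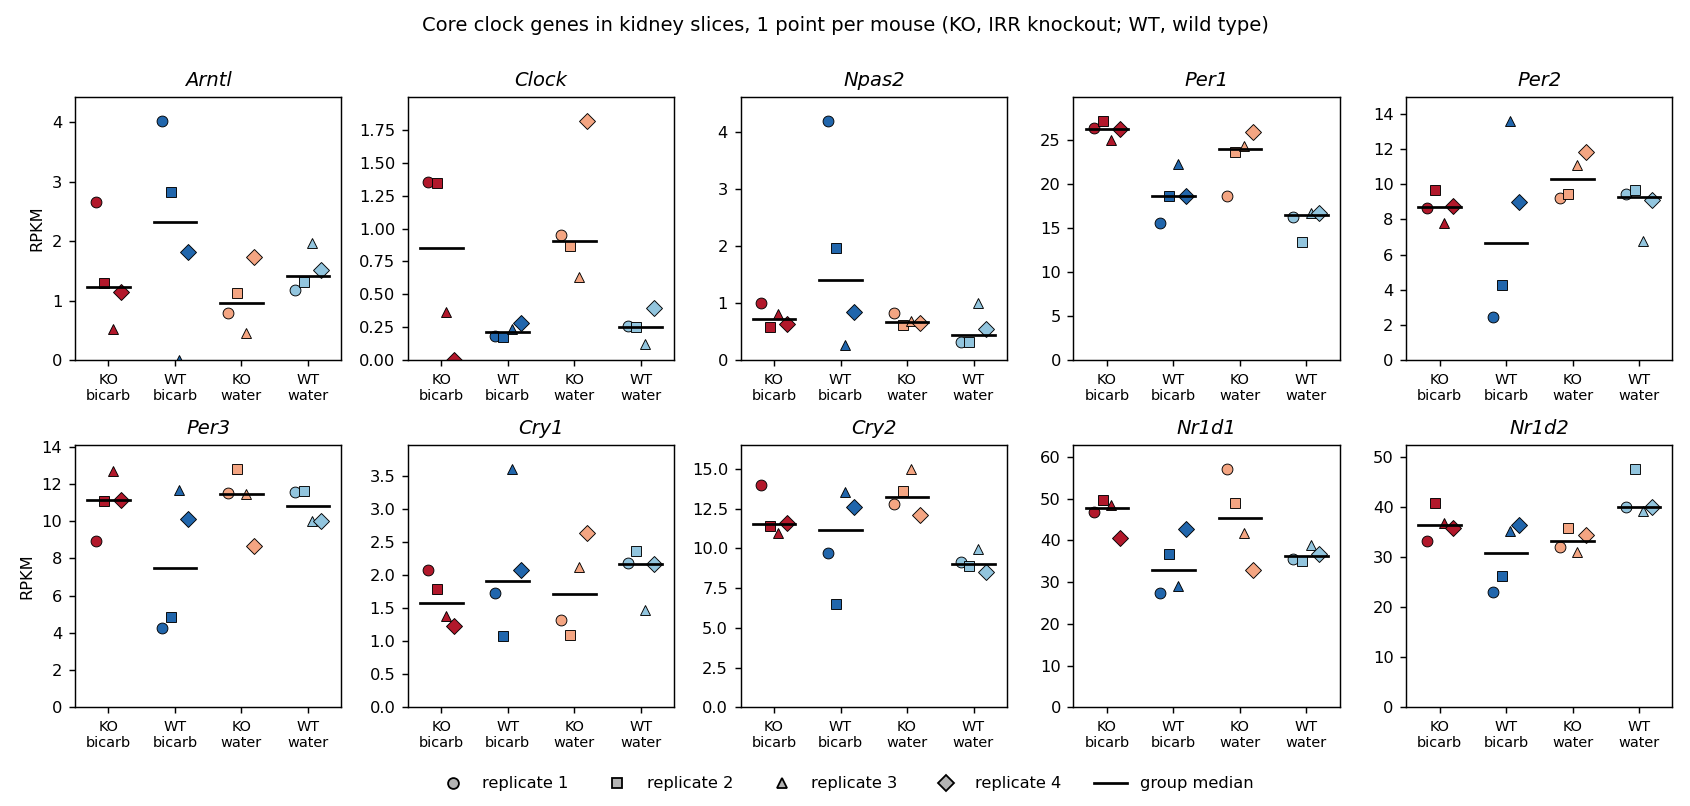
RPKM of the 10 core clock genes (vertical axes, each from 0) in the 4 groups (horizontal axis; KO, IRR knockout; WT, wild type), with 1 point per animal, marker shapes for replicate numbers and a bar at the group median. Per1 was higher in every knockout than in any wild-type animal on the same drink, and the wild-type animals on bicarbonate were the most scattered for Arntl, Npas2, Per2 and Per3.

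Levels are given as RPKM, a length-normalised measure. The gene lengths used for it are not known here, so levels of different genes are compared only roughly. The clock genes covered a wide range of levels. In wild-type kidneys on water, the group medians were 39.96 RPKM for Nr1d2, 36.2 for Nr1d1, 16.4 for Per1, 10.8 for Per3, 9.26 for Per2, 9.03 for Cry2, 2.17 for Cry1, 1.41 for Arntl, 0.431 for Npas2 and 0.253 for Clock. In that order, the ranges of neighbouring genes overlapped for Per2 and Cry2, for Cry1 and Arntl, and for Npas2 and Clock, and the other neighbours did not overlap. Apart from Cry1, the repressors stood above the activators in RPKM, and the activators were near the lower limit of what was tested, 0.5 RPKM in at least 4 of 16 libraries. In the other 3 groups Nr1d1 had the highest median, with a range that overlapped that of Nr1d2. Clock passed the limit only through knockout libraries, since its highest wild-type value was 0.392 RPKM.

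Arntl encodes BMAL1, the activator on which the loop depends. It had 2.66, 1.30, 0.517 and 1.15 RPKM in knockout and 4.02, 2.83, 0 and 1.82 RPKM in wild-type kidneys on bicarbonate. On water Arntl was at 0.793, 1.12, 0.459 and 1.73 RPKM in knockout and 1.18, 1.31, 1.97 and 1.52 RPKM in wild-type kidneys. The highest values of all 16 libraries were those of the first and second wild-type animals on bicarbonate, and the third animal of that group was listed at 0, so the groups overlapped in each comparison. With that 0 in the fit, the log2 difference of knockout minus wild type on bicarbonate was 0.09 ± 0.89 (SE), which failed the test (limma, adjusted p = 0.961). Bicarbonate minus water in wild type gave -0.34 ± 0.89 (SE) (adjusted p = 0.927). Without that library these 2 differences were -1.12 and 0.87, and neither passed.

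The promoter of Arntl is shown because it carries the element through which REV-ERB proteins act on this gene. In the RefSeq promoter windows of GRCm38.p6, which run from 250 bases before to 50 after a transcript start, 9 of the 10 genes matched, with 13 windows. TAGGTCA, the core of a ROR element, was searched on both strands and was in 2.606% of 32851 windows. Among the 13, it was in 1, an Arntl window at chr7:113207261-113207560 on the plus strand, 31 bases after the start, in capitals here.
Arntl: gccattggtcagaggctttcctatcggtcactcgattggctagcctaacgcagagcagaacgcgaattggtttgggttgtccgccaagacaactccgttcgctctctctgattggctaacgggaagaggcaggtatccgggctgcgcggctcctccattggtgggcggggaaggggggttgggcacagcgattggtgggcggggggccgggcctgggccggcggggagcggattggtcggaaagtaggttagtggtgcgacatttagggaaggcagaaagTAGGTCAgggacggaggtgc

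Npas2, the paralog of Clock that can replace it as partner of BMAL1, had 1.003, 0.575, 0.813 and 0.638 RPKM in knockout and 4.18, 1.97, 0.259 and 0.838 RPKM in wild-type kidneys on bicarbonate. On water Npas2 was at 0.828, 0.614, 0.680 and 0.638 RPKM in knockout and 0.313, 0.322, 0.998 and 0.540 RPKM in wild-type kidneys. As with Arntl, the first and second wild-type animals on bicarbonate had the highest values of all, and the third had the lowest. All groups overlapped, and bicarbonate minus water in wild type was 1.15 ± 0.56 (SE) on the log2 scale (limma, adjusted p = 0.441). In the knockout the same difference was 0.10, with an interval from -1.10 to 1.29.

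Clock encodes the DNA-binding partner of BMAL1 and, unlike Arntl, is a gene of weak daily rhythm in most tissues. Its values were 1.36, 1.35, 0.364 and 0 RPKM in knockout and 0.180, 0.177, 0.238 and 0.278 RPKM in wild-type kidneys on bicarbonate. On water they were 0.949, 0.868, 0.632 and 1.82 RPKM in knockout and 0.256, 0.250, 0.119 and 0.392 RPKM in wild-type kidneys. The knockouts lay above every wild-type animal on water, while on bicarbonate 1 knockout was listed at 0 and the groups overlapped. Clock entered the tests through its knockout libraries alone, so its genotype differences are given as a description and are not counted as calls. On the log2 scale, knockout minus wild type was 0.82 on bicarbonate, 1.65 without the knockout library listed at 0, and 1.68 on water.

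Per1 encodes a PERIOD repressor and is also induced directly by glucocorticoids and by other acute cues. It had 26.3, 27.1, 25.0 and 26.2 RPKM in knockout and 15.5, 18.7, 22.3 and 18.6 RPKM in wild-type kidneys on bicarbonate. On water it had 18.6, 23.6, 24.3 and 25.9 RPKM in knockout and 16.2, 13.4, 16.7 and 16.7 RPKM in wild-type kidneys. On each drink, all 4 knockouts were above all 4 wild-type animals. Per1 averaged 26.2 ± 0.880 RPKM in knockout and 18.8 ± 2.76 RPKM in wild-type kidneys on bicarbonate (SD, n = 4 each). On water it averaged 23.1 ± 3.16 RPKM in knockout and 15.8 ± 1.58 RPKM in wild-type kidneys (SD, n = 4 each). Per1 thus rose in the knockout on both drinks, by 0.49 ± 0.12 (SE) on bicarbonate (limma, adjusted p = 0.00916) and by 0.55 ± 0.12 (SE) on water (adjusted p = 0.00368) on the log2 scale, or 1.402-fold and 1.46-fold in the fit. The call held under every alternative run on each drink, with adjusted p from 0.00359 to 0.0364 on bicarbonate and from 0.00108 to 0.0167 on water. The interaction, which tests whether the drink response differed between genotypes, was -0.06 with an interval from -0.41 to 0.29.

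Cry2, a cryptochrome that joins PER proteins in repression, had 14.0, 11.4, 10.9 and 11.6 RPKM in knockout and 9.73, 6.48, 13.5 and 12.6 RPKM in wild-type kidneys on bicarbonate. On water it had 12.8, 13.6, 15.03 and 12.1 RPKM in knockout and 9.15, 8.91, 9.99 and 8.53 RPKM in wild-type kidneys. On water the groups did not overlap, and on bicarbonate the wild-type range enclosed 3 of the 4 knockout values. Cry2 rose in the knockout on water by 0.54 ± 0.17 (SE) on the log2 scale (limma, adjusted p = 0.0374), at 13.4 ± 1.25 RPKM in knockout and 9.15 ± 0.618 RPKM in wild-type kidneys (SD, n = 4 each). That call was lost without knockout animal 1, 2 or 3 or wild-type animal 1, 2 or 4 on water, with adjusted p up to 0.0953, while the difference stayed between 0.49 and 0.59. On bicarbonate the difference was 0.23 ± 0.17 (SE) (adjusted p = 0.405), and the interaction was -0.32 (adjusted p = 0.751). Exons of Cry2 share 295 bases with D930015M05Rik on the opposite strand, and the sources used here do not state whether counting used strand, so reads there cannot be told apart.

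Per2 encodes the PERIOD protein on which the loop of most tissues relies. It had 8.64, 9.67, 7.80 and 8.76 RPKM in knockout and 2.43, 4.27, 13.6 and 9.01 RPKM in wild-type kidneys on bicarbonate. On water it had 9.23, 9.47, 11.1 and 11.8 RPKM in knockout and 9.42, 9.65, 6.76 and 9.10 RPKM in wild-type kidneys. The first and second wild-type animals on bicarbonate were the lowest of all 16 and the third was the highest, so that group alone spanned the whole range. Knockout minus wild type was 0.53 ± 0.37 (SE) on bicarbonate (limma, adjusted p = 0.351) and 0.26 ± 0.37 (SE) on water (adjusted p = 0.668), neither of which passed. Without the third wild-type animal on bicarbonate, the difference on bicarbonate was 0.92 and passed (limma, adjusted p = 0.0477), the only 1 of 24 alternatives to do so. With each library left out, that difference ran from 0.11 to 0.92.

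Per3, the third PERIOD gene, follows the clock in many tissues, with a smaller part in the loop itself. Its values were 8.95, 11.1, 12.7 and 11.1 RPKM in knockout and 4.25, 4.86, 11.7 and 10.1 RPKM in wild-type kidneys on bicarbonate. On water they were 11.5, 12.8, 11.4 and 8.67 RPKM in knockout and 11.6, 11.6, 10.03 and 10.03 RPKM in wild-type kidneys. Again the first and second wild-type animals on bicarbonate were the lowest of all 16, below every other animal, and the other 2 of their group lay among the rest. Knockout minus wild type on bicarbonate was 0.62 ± 0.26 (SE) (limma, adjusted p = 0.111), and 0.86 without the third wild-type animal, which passed (adjusted p = 0.0207). That was the only 1 of 24 alternatives to pass, and with each library left out the difference ran from 0.39 to 0.86. On water the difference was 0.03, with an interval from -0.52 to 0.58.

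Cry1, the cryptochrome that represses more strongly and acts later in the daily cycle, had 2.07, 1.78, 1.37 and 1.22 RPKM in knockout and 1.73, 1.08, 3.61 and 2.08 RPKM in wild-type kidneys on bicarbonate. On water Cry1 was at 1.31, 1.098, 2.12 and 2.63 RPKM in knockout and 2.17, 2.36, 1.48 and 2.16 RPKM in wild-type kidneys. The groups overlapped in every comparison, and the third wild-type animal on bicarbonate had the highest value. Knockout minus wild type was -0.28 on bicarbonate and -0.24 on water on the log2 scale, with intervals from -0.98 to 0.41 and from -0.93 to 0.45.

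The promoters of 3 repressor genes are shown because they hold elements bound by the activators or by the clock output factors. CACGTG, the E-box, was searched on both strands and was in 7.15% of the 32851 windows. It was in 2 of the 13 windows of the clock genes, 166 bases before the start of Per1 at chr11:69098699-69098998 on the plus strand and 60 bases before that of Cry1 at chr10:85185005-85185304 on the minus strand. TTANGTAA, the D-box bound by DBP, TEF, HLF and NFIL3, was in 2.323% of all windows and in 1 of the 13, at 205 and 158 bases before the start of Per3 at chr4:151044616-151044915 on the minus strand. Capitals mark these matches, and the sequences are from RefSeq on GRCm38.p6. A match is a description of the letters, and a window with none says only that they are not in that window.
Per1: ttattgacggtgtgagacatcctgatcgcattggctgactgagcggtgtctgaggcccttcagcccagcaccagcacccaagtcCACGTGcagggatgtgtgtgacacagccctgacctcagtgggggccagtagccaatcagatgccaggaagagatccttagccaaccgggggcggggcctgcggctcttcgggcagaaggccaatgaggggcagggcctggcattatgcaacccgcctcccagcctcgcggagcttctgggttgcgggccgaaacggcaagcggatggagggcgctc
Cry1: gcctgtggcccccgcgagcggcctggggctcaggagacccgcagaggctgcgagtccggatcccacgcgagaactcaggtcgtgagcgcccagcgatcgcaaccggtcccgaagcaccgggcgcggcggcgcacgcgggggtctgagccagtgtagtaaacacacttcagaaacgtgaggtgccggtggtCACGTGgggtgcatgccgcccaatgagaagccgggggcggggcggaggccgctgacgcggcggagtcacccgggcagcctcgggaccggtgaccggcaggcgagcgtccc
Per3: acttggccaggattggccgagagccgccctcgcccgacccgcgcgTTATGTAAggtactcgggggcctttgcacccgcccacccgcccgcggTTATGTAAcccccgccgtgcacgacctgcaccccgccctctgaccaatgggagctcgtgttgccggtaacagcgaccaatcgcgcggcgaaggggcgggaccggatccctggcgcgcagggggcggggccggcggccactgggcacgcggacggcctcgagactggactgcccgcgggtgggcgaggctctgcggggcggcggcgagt

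Nr1d1 encodes REV-ERB alpha, the nuclear receptor that represses Arntl. It had 46.9, 49.6, 48.4 and 40.6 RPKM in knockout and 27.4, 36.7, 29.1 and 42.7 RPKM in wild-type kidneys on bicarbonate. On water it had 57.2, 49.0, 41.7 and 32.8 RPKM in knockout and 35.6, 35.0, 38.8 and 36.8 RPKM in wild-type kidneys. The knockouts were mostly the higher ones, but the groups overlapped on both drinks. Averaged over both drinks, Nr1d1 rose in the knockout by 0.37 ± 0.11 (SE) on the log2 scale (limma, adjusted p = 0.0175), a call that held under every alternative. Taken alone, the difference was 0.47 ± 0.16 (SE) on bicarbonate (adjusted p = 0.0506) and 0.28 ± 0.16 (SE) on water (adjusted p = 0.230). The difference on bicarbonate passed without wild-type animal 4 on bicarbonate (0.58, adjusted p = 0.0204) and without knockout animal 1 (adjusted p = 0.0335) or 4 (adjusted p = 0.0247) on water. Exons of Nr1d1 share 263 bases with Thra on the opposite strand, with the same limit as for Cry2, and those of Arntl share 33 bases with Gm45355.

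Nr1d2, which encodes REV-ERB beta, was the clock gene whose drink groups did not overlap in wild type. It had 33.2, 40.7, 36.9 and 35.9 RPKM in knockout and 23.1, 26.3, 35.2 and 36.4 RPKM in wild-type kidneys on bicarbonate. On water it had 32.03, 35.8, 31.0 and 34.3 RPKM in knockout and 39.9, 47.6, 39.3 and 40.1 RPKM in wild-type kidneys. All 4 wild-type animals on bicarbonate were below all 4 on water, with the first and second the lowest of all 16, whereas the knockouts overlapped between drinks. Bicarbonate minus water was -0.48 ± 0.13 (SE) in wild type (limma, adjusted p = 0.133, with an unadjusted p of 0.00174) and 0.14 ± 0.13 (SE) in the knockout (adjusted p = 0.835). The interaction was 0.62 ± 0.18 (SE) on the log2 scale, with an unadjusted p of 0.00357 that did not pass over all genes (limma, adjusted p = 0.462). The genotype difference accordingly had opposite signs, 0.30 on bicarbonate (adjusted p = 0.120) and -0.32 on water (adjusted p = 0.0852), neither of which passed. Each difference passed under 2 of 24 alternatives. On bicarbonate it passed without wild-type animal 4 on bicarbonate (0.40, limma, adjusted p = 0.0439) and after the correction for gene length and GC. On water it passed without wild-type animal 1 on bicarbonate (limma, adjusted p = 0.0421) and in a fit of the compared groups alone. That animal is in neither of the groups compared on water.

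**Figure D2:**
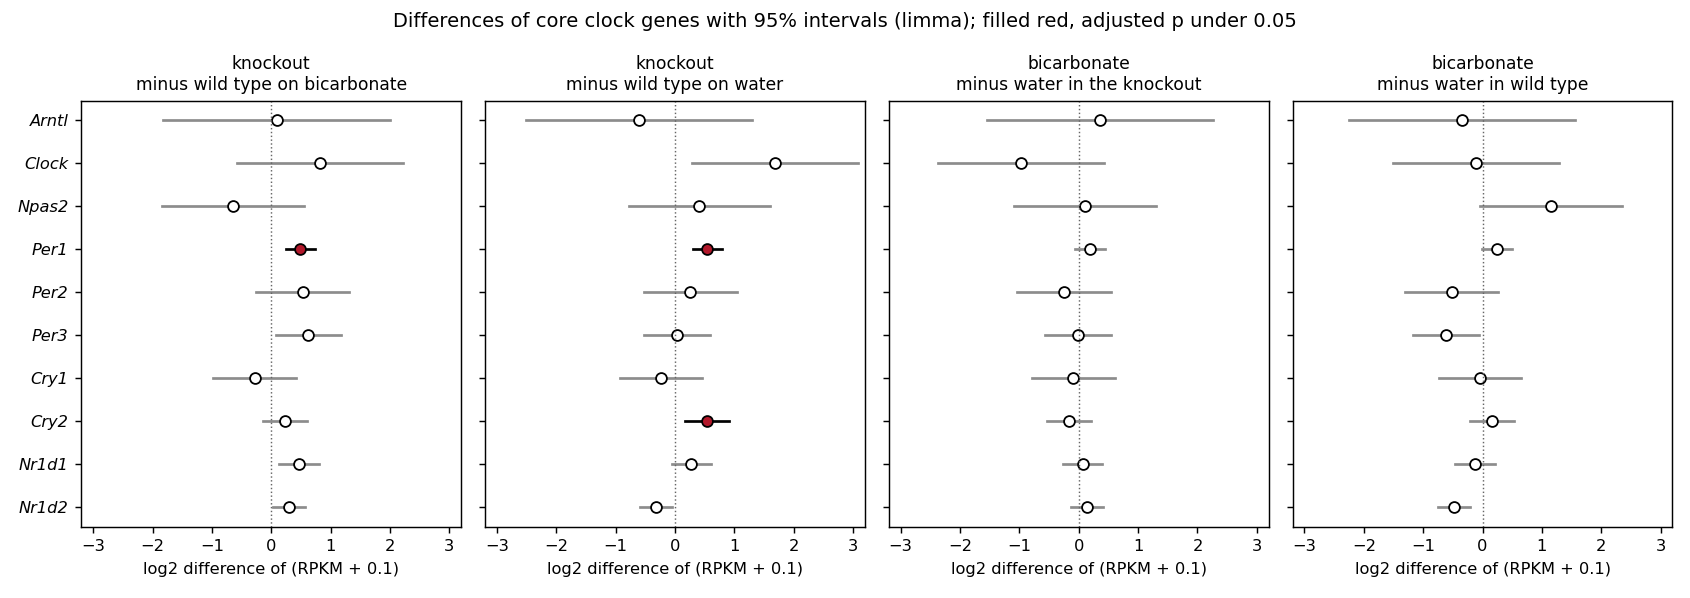
Log2 differences (points) with 95% intervals (lines) of the 10 clock genes in 4 comparisons, from limma on log2(RPKM + 0.1); filled red points passed an adjusted p of 0.05. Per1 passed in both genotype comparisons and Cry2 on water, and none passed for the drink in either genotype.

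Among the 9 genes other than Clock, the genotype calls were about as frequent as among genes in general. Clock is left out because it passed the filter only through knockout libraries. On bicarbonate 1 of 9 was called, higher in the knockout, where 18.4% of all tested genes were called in either direction and 9.03% higher. On water 2 of 9 were called, both higher, against a background of 21.9% in either direction and 10.1% higher. The ranges of knockout and wild type did not overlap for 1 of 9 on bicarbonate, against 22.8% of all genes. On water they did not overlap for 3 of 9, against 23.8%. Averaged over both drinks and with Clock left out, 3 of the other 9 were higher and 0 lower, against 33.7% called in either direction and 15.1% higher among all genes. Those 3 were Nr1d1, Per1 and Cry2, and the call of Cry2 was lost without knockout animal 1 on bicarbonate (limma, adjusted p = 0.0518) or 3 on water (adjusted p = 0.0515). Without the third wild-type animal on bicarbonate, the averaged difference also passed for Arntl (-0.86, adjusted p = 0.0479), Per2 (0.59, adjusted p = 0.0378) and Per3 (0.45, adjusted p = 0.0436). For each of these genes it was the only 1 of 23 alternatives to pass. With each library left out, the averaged difference ran from -0.86 to 0.03 for Arntl, 0.18 to 0.59 for Per2 and 0.21 to 0.45 for Per3. The median log2 difference of the 9 genes was 0.30 on bicarbonate and 0.26 on water, beside -0.02 and -0.05 over all tested genes. The comparisons of knockout with wild type on each drink share no animals, but they come from 1 fit with a shared variance. A batch that followed genotype could not be told apart from it in either. The 9 genes were read in the same animals, so they are not separate observations.

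Other features of the libraries moved with genotype. Summed over all genes, RPKM was 2.42e+06 to 2.73e+06 in knockout and 1.36e+06 to 1.54e+06 in wild-type libraries on bicarbonate, and 2.73e+06 to 2.93e+06 in knockout and 1.49e+06 to 1.60e+06 in wild-type libraries on water. The median gene differed less, at 8.62 to 8.78 RPKM in knockout and 8.66 to 8.92 RPKM in wild-type libraries on bicarbonate. On water its ranges did not overlap, at 8.44 to 8.53 RPKM in knockout and 8.66 to 8.91 RPKM in wild-type libraries. The 4 immune markers, all of which were detected, summed to 99.9 to 109 RPKM in knockout and 79.3 to 98.6 RPKM in wild-type kidneys on bicarbonate, and to 104 to 130 RPKM in knockout and 60.2 to 96.3 RPKM in wild-type kidneys on water. Blood markers summed to 234 to 612 RPKM in knockout and 811 to 1550 RPKM in wild-type kidneys on bicarbonate, and overlapped on water. The 2 thick limb markers summed to 858 to 1043 RPKM in knockout and 1142 to 1347 RPKM in wild-type kidneys on water, and the 2 distal convoluted tubule markers to 228 to 234 RPKM in knockout and 204 to 222 RPKM in wild-type kidneys on bicarbonate, each overlapping on the other drink. The other marker lists overlapped on both drinks. The part of these in the Per1, Cry2, Nr1d1 and Clock differences was not tested. In whole kidney slices, fewer cells of a type and less RNA per cell cannot be told apart.

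None of the 10 clock genes was called for the drink. In the knockout 0 of 10 were called with limma and 0 had an unadjusted p under 0.05, where 0.0232% of all genes were called and 7.99% had such a p. In wild type 0 of 10 were called and 2, Nr1d2 and Per3, had an unadjusted p under 0.05, where 0.139% of all genes were called and 12% had such a p. The ranges of bicarbonate and water did not overlap for 0 of 10 genes in the knockout, against 5.66% of all genes, and for 1 in wild type, Nr1d2, against 5.86%. The interaction called 0 of 10, with 1, Nr1d2, at an unadjusted p under 0.05, against 0.0155% called and 8.19% at that p among all genes. Averaged over genotypes the drink called 0 of 10, with Per1 alone at an unadjusted p under 0.05 (0.22 ± 0.08 (SE), adjusted p = 0.315), against 0.44% called and 11.3% at that p. The intervals were narrow for some genes and wide for others: in the knockout, they ran from -0.13 to 0.41 for Nr1d2 and from -2.37 to 0.43 for Clock.

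The spread among animals was largest in wild-type kidneys on bicarbonate for 8 of the 10 clock genes. The median of the 10 genes' standard deviations of log2(RPKM + 0.1) within a group was 0.18 in knockout and 0.58 in wild-type kidneys on bicarbonate, and 0.22 in knockout and 0.19 in wild-type kidneys on water. Over all tested genes these medians were 0.17, 0.20, 0.18 and 0.19 in the same order of groups. In wild-type kidneys on bicarbonate, 5 of the 10 genes had a larger standard deviation than 90% of all tested genes, against 2 in knockout kidneys on bicarbonate, 3 in knockout and 1 in wild-type kidneys on water. Those 5 were Arntl at 2.46, Npas2 at 1.54, Per2 at 1.09, Per3 at 0.72 and Cry1 at 0.68. The value of Arntl rests on the animal listed at 0, which can be a failed estimate. The 2 genes with a larger spread in another group were Clock, at 1.83 in knockout and 0.22 in wild-type kidneys on bicarbonate, where 1 knockout was listed at 0, and Nr1d1, at 0.34 in knockout kidneys on water and 0.30 in wild-type kidneys on bicarbonate. The share of all tested genes with their largest spread in wild-type kidneys on bicarbonate was not computed. The 10 genes were read in the same animals, so they are not separate observations. The difference in spread between groups was not tested.

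The scatter had a direction. The first and second wild-type animals on bicarbonate had the highest Arntl and Npas2 of all 16 animals and the lowest Per2, Per3 and Nr1d2. The third animal of the group had the lowest Arntl and Npas2 and the highest Per2 and Cry1, and the fourth lay between for Arntl, Npas2 and Per2. Nr1d1 did not follow the same order, with 27.4, 36.7, 29.1 and 42.7 RPKM in the 4 animals. Per1 was lowest in the first of them and highest in the third.

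**Figure D3:**
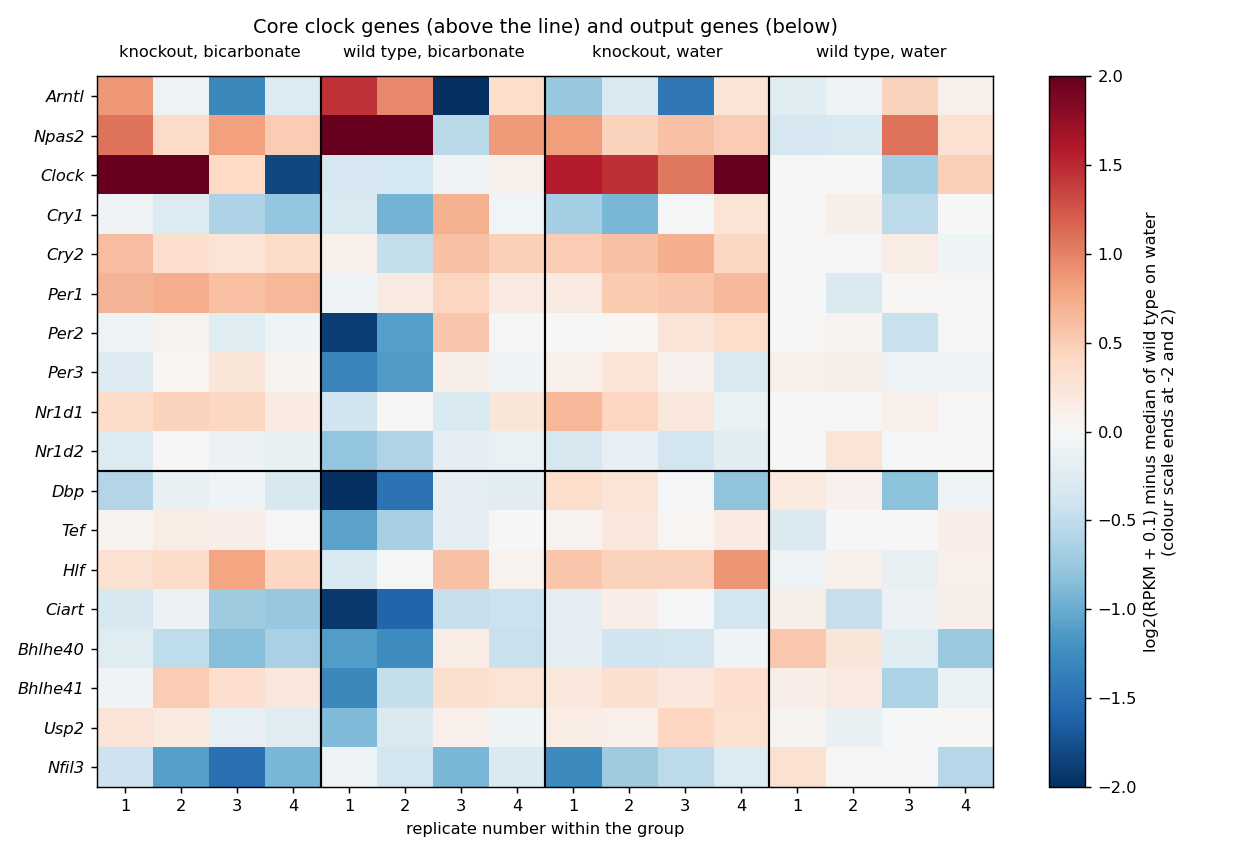
Log2(RPKM + 0.1) of the 10 clock genes (upper block) and 8 clock output or auxiliary genes (lower block) in each of the 16 animals (columns, by group and replicate number), minus the median of wild-type animals on water; the colour scale ends at -2 and 2. The first and second wild-type animals on bicarbonate show high Arntl and Npas2 beside low Per2, Per3, Dbp, Tef and Ciart.

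Output genes of the clock were followed in the same animals. Dbp, a D-box activator of strong daily rhythm, had 4.20, 7.07, 17.4 and 17.0 RPKM in wild-type kidneys on bicarbonate, against 22.7, 21.3, 11.2 and 18.7 RPKM on water. Ciart, a repressor of the activators with a strong daily rhythm, had 4.80, 6.17, 13.5 and 13.8 RPKM in wild-type kidneys on bicarbonate, against 20.1, 13.5, 17.2 and 20.3 RPKM on water. Tef, a D-box activator related to Dbp, had 50.6, 66.5, 91.9 and 106 RPKM in wild-type kidneys on bicarbonate, against 86.6, 105, 107 and 116 RPKM on water. For all 3, and for the deubiquitinase Usp2 at 44.9, 67.6, 89.4 and 77.7 RPKM in wild-type kidneys on bicarbonate, the first and second animals on bicarbonate were the lowest of all 16. Dbp, Tef and Usp2 are named here after their values were seen. Ciart had the smallest p of its list for the drink in wild type, -1.02 ± 0.29 (SE) (limma, adjusted p = 0.172), and did not pass. In the knockouts on bicarbonate Dbp was more even, at 13.3, 18.0, 18.7 and 16.0 RPKM, and Ciart was at 14.9, 17.3, 11.4 and 10.95 RPKM.

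Relations to Arntl were computed across the 16 animals after each group's mean was removed, with permutation within groups and adjustment over 9 genes. Per3 ran opposite to Arntl, with a Pearson r of -0.78 (permutation test, p = 0.00107, adjusted p = 0.00963) and a Spearman rho of -0.70 (p = 0.00314, adjusted p = 0.0283). Npas2 ran with Arntl, with an r of 0.78 (permutation test, p = 0.00762, adjusted p = 0.0343) and a rho of 0.54 (p = 0.0421, adjusted p = 0.190). The remaining 7 relations did not pass, that of Per2 having an r of -0.71 (permutation test, p = 0.107, adjusted p = 0.320) and a rho of -0.36. Without the third and first wild-type animals on bicarbonate, which lay farthest from the median of Arntl, r was -0.63 for Per3, 0.33 for Npas2 and -0.14 for Per2. With each library left out, r ran from -0.95 to -0.67 for Per3 and from 0.43 to 0.84 for Npas2. The adjusted p was less stable: without the first wild-type animal on bicarbonate, r was -0.73 for Per3 (permutation test, adjusted p = 0.588) and 0.74 for Npas2 (adjusted p = 0.312), and without the second it was -0.76 for Per3 and 0.77 for Npas2 (adjusted p = 0.603 for both).

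**Figure D4:**
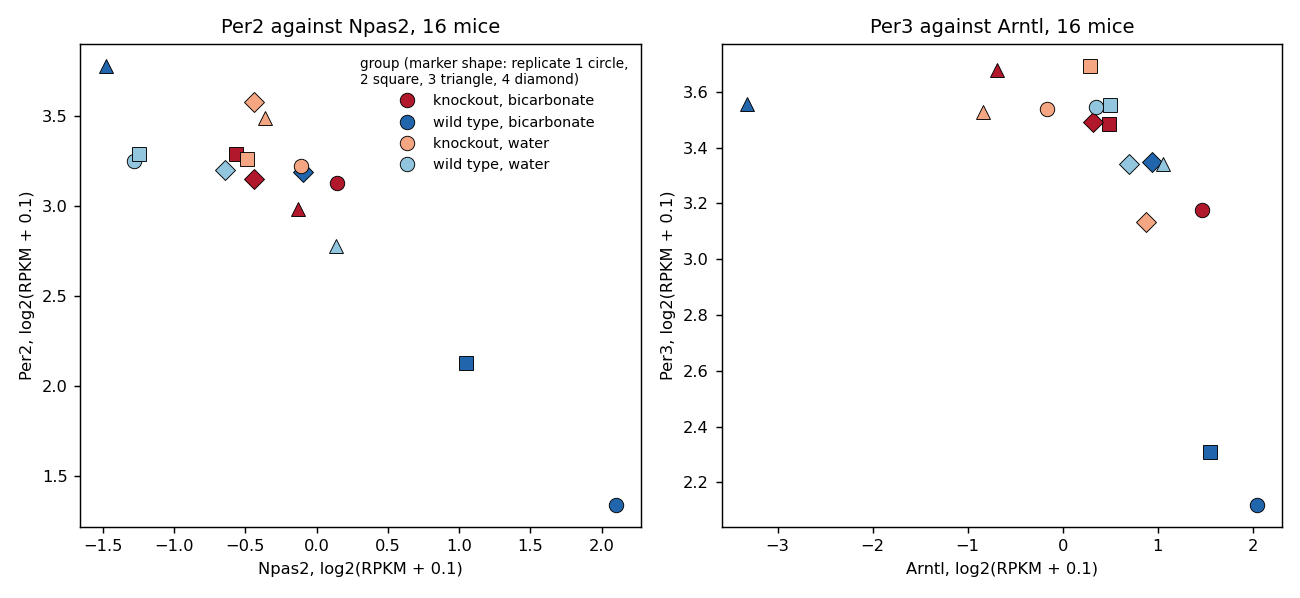
Per2 against Npas2 (left) and Per3 against Arntl (right) in 16 animals, on log2(RPKM + 0.1) axes, coloured by group with marker shapes for replicate numbers. The first and second wild-type animals on bicarbonate sit alone at the lower right of both plots, and the third sits at the upper left, where its Arntl was listed at 0.

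Over all 16 animals and all 12943 tested genes, the gene least like Per2 was another clock gene, Npas2, with an r of -0.90. The others of lowest r with Per2 were Htra1 (-0.85), Cdkn2b (-0.84), Slc16a1 (-0.82) and Smim3 (-0.82). The 5 of highest r were Bhlhe41 (0.89), a repressor of E-box genes, Prkaa1 (0.87), a catalytic subunit of AMP-activated kinase, the protease Prss8 (0.86), Per3 (0.85) and Usp2 (0.85). Prkaa1 was listed at 0 in the first and second wild-type animals on bicarbonate and had 9.45 and 11.9 RPKM in the other 2 of that group. Those first and second animals also had the lowest Per2, so its r rests in part on values that can be failed estimates. These correlations were not computed without those animals. For Arntl, r was among the highest with Stk24 (0.82), Fndc3b (0.82), Tnfsf9 (0.82) and Cep76 (0.80) and lowest with Tmc8 (-0.86), Ccdc191 (-0.79), Hpcal4 (-0.78), Susd1 (-0.78) and Limk1 (-0.77). For Nr1d1, r was highest with Alg12 (0.83), Plpp5 (0.82), Hk1 (0.82), Elk1 (0.81) and Ptpn18 (0.80) and among the lowest with Hprt (-0.87), Nasp (-0.84), Wrap73 (-0.82) and Pim3 (-0.82). No clock gene was among the 5 at either end for Arntl or Nr1d1. These correlations describe 16 libraries that also differ by group, and they carry no test.

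Cues known to set clock genes were also read in the animals that stood apart. Fkbp5, a glucocorticoid target named here after its values were seen, had 18.3, 31.0, 64.4 and 38.2 RPKM in wild-type kidneys on bicarbonate, with the lowest value of all 16 in the first animal and the highest in the third. Other glucocorticoid targets of the same list did not all follow that order: in the same animals Tsc22d3 had 58.1, 65.2, 75.9 and 72.9 RPKM, Zbtb16 2.00, 3.98, 4.32 and 8.59 RPKM and Klf9 74.7, 82.6, 74.4 and 68.8 RPKM. The 3 adipose markers found in the table summed to 322, 97.4, 449 and 209 RPKM in wild-type kidneys on bicarbonate, and the 5 blood markers to 1550, 811, 1432 and 910 RPKM. Neither sum was highest in this group. The adipose sum reached 569 RPKM in a wild-type animal on water and 388 RPKM in a knockout on bicarbonate. The blood sum reached 2068 RPKM in a knockout on water. The part of these in the clock gene values was not tested. Among 14 genes of glucocorticoid and fasting cues, none was called for the drink in either genotype. Of all tested genes, 0.139% were called in wild type and 0.0232% in the knockout. In the knockout against wild type, 4 rose on bicarbonate and 1 on water, where 9.03% and 10.1% of all tested genes were higher. Per1 was among them on each drink and was the only one on water. It is itself a clock gene whose calls are counted above. The others on bicarbonate were Insr (0.38), Ppargc1a (0.35) and Igf1r (0.28). Fkbp5, Tsc22d3, Zbtb16 and Klf9 were not called by genotype on either drink.

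Of 13 output and auxiliary loop genes, 12 were tested, and knockout minus wild type called 1 on each drink, against 18.4% of all tested genes on bicarbonate and 21.9% on water. Tef rose in the knockout on bicarbonate by 0.57 ± 0.17 (SE) (limma, adjusted p = 0.0316), at 111, 118, 116 and 104 RPKM in knockout and 50.6, 66.5, 91.9 and 106 RPKM in wild-type kidneys. Hlf, the third D-box activator, rose in the knockout on water by 0.60 ± 0.16 (SE) (adjusted p = 0.0142), at 75.5, 70.9, 70.8 and 94.5 RPKM in knockout and 47.9, 54.7, 46.4 and 55.1 RPKM in wild-type kidneys. Averaged over both drinks, Hlf (0.50) and Tef (0.36) rose and Nfil3, the D-box repressor, fell (-0.60, adjusted p = 0.0232), against 33.7% of all tested genes called. For the drink none of the 12 was called in either genotype, against 0.0232% of all tested genes in the knockout and 0.139% in wild type. The median log2 difference of the 12 was -0.18 in the knockout and -0.31 in wild type, beside 0.01 and -0.01 over all tested genes.

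Genotype calls were also made among enzymes and partners that modify clock proteins. Of 22 tested, 5 rose and 3 fell in the knockout on bicarbonate, where 18.4% of all tested genes were called, and 3 rose and 2 fell on water, where 21.9% were, a share close to that of the list. Csnk2b, the regulatory subunit of casein kinase 2, rose by 0.79 ± 0.06 (SE) on bicarbonate (limma, adjusted p = 1.81e-06) and by 0.88 ± 0.06 (SE) on water (adjusted p = 3.22e-07). Ncor1, the corepressor recruited by REV-ERB proteins, rose by 0.61 on bicarbonate and 0.55 on water. Others that rose were the casein kinase 2 catalytic subunit Csnk2a1 (0.52) and the deacetylase Hdac3 (0.30) on bicarbonate, and the PER-associated protein Nono (0.29) on water. Cul1 and Skp1a, subunits shared by SCF ubiquitin ligases, fell by 0.56 and 0.28 on bicarbonate and by 0.52 and 0.30 on water, and Fbxw11, the F-box protein that binds phosphorylated PER, fell by 0.35 on bicarbonate. None of the 22 was called for the drink in either genotype, against 0.139% of all tested genes in wild type and 0.0232% in the knockout.

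Kidney transport genes under known clock control were split in direction. Of 13 tested, 1 rose and 2 fell in the knockout on bicarbonate, against 18.4% of all tested genes called in either direction, and 2 rose and 3 fell on water, against 21.9%. Wnk4, a kinase that regulates sodium chloride transport, rose by 0.74 ± 0.11 (SE) on bicarbonate (limma, adjusted p = 0.000462) and by 0.86 ± 0.11 (SE) on water (adjusted p = 0.000100). Scnn1a, the alpha subunit of the epithelial sodium channel and a target of PER1 in the collecting duct, had 44.5, 41.0, 36.6 and 36.1 RPKM in knockout and 26.4, 31.7, 41.8 and 30.5 RPKM in wild-type kidneys on bicarbonate, where it was not called. On water it rose by 0.47 ± 0.14 (SE) (adjusted p = 0.0312), at 43.9, 40.7, 46.4 and 46.4 RPKM in knockout and 26.6, 27.2, 37.7 and 38.6 RPKM in wild-type kidneys. The glucose transporter Slc5a2 fell by 0.52 on bicarbonate and by 0.44 on water, the vasopressin receptor Avpr2 fell by 0.91 on water, and the water channel Aqp4 fell on both drinks, with 0.426, 1.06, 0.957 and 0 RPKM in knockout and 7.04, 5.80, 2.35 and 5.98 RPKM in wild-type kidneys on bicarbonate and 0, 0.412, 1.36 and 0.444 RPKM in knockout and 6.56, 2.93, 6.17 and 9.17 RPKM in wild-type kidneys on water. None of the 13 was called for the drink in either genotype, against 0.139% of all tested genes in wild type and 0.0232% in the knockout.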

How the data were processed

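RPKM per gene in 16 kidney libraries was read from 1 table that the authors deposited. Salmon 1.5.2 and edgeR 3.34.0, and the builds GRCm39 and mm10, are named in the submitters' processing notes with no role stated. Gene IDs, all of which matched, were given symbols and positions from GENCODE release M21 on GRCm38. Whole reads could not be recovered, so depth is unknown and no counting interval is given. Groups follow the labelled genotype and drink.

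Genes with at least 0.5 RPKM in at least 4 of 16 libraries were tested, which left 12943 and set aside 487; all 10 clock genes passed. Log2(RPKM + 0.1) was tested with limma 3.58.1 (R 4.3.3), with trended and robust variance, in 1 fit of the 4 group means with 12 residual degrees of freedom, two-sided, with Benjamini-Hochberg adjustment over all tested genes and a threshold of 0.05. Log2 differences on this scale understate the change of low genes. The 7 contrasts were knockout minus wild type and bicarbonate minus water, within each level and averaged, and the interaction. Relations to Arntl used 100000 shuffles within groups. The fitting code was checked on simulated data.

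The clock genes and the 4 further lists were chosen with earlier results of these data known. All 10 clock genes are named, and of the other lists the genes past the threshold or, failing that, those of smallest p; likeness was listed for Arntl, Nr1d1 and Per2, 5 genes at each end. Some genes that these rules name are not reported here. Alternatives were a pseudocount of 1, no filter on low values, median-of-ratios scaling, quantile normalization, a variance with no trend, removal of a length and GC trend, the compared groups only, a replicate block, and each library left out in turn; the relations were also run with Spearman's rho and with group means kept. P-values measure the spread between these animals.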

Additional observations from a re-analysis of the deposited data

Results flagged for a closer look

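In 2 of the 40 sets of 4 animals, 10 genes by 4 groups, 1 animal lay farther from the other 3 than Dixon's criterion allows, a gap of more than 0.829 of the group's whole range. Chance alone flags about 1 in 20 such groups. Both were the second wild-type animal on water. Its Per1 was 13.4 RPKM against 16.2 to 16.7 RPKM in the other 3, a gap of 0.846 of the range. Its Nr1d2 was 47.6 RPKM against 39.3 to 40.1 RPKM, a gap of 0.906 of the range. Without this animal, Per1 in knockout minus wild type on water still passed the test, as under every other alternative, and the Cry2 call on water did not (limma, adjusted p = 0.0794).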

How the results depend on the processing

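Depth is unknown, and the activators lie near the lower limit tested, with single values listed at 0. With 4 animals a group, intervals of Arntl, Clock and Npas2 were wide. Per1 kept its calls under all alternatives in both genotype comparisons, and no alternative called any of the 10 clock genes for the drink or the interaction. The clock genes called on bicarbonate, 1 as reported, were 3 with the length and GC trend removed, 2 with median-of-ratios scaling, with a pseudocount of 1 or with quantile normalization, Nr1d1 being among those added each time, and 1 to 3 with each library left out. Those called on water, 2 as reported, were 1 with the length and GC trend removed, 4 in the compared groups only, Clock among them, and 1 to 3 with each library left out. Averaged over drinks they were 4 with Clock counted and 3 without it, and 2 to 6 with each library left out. With a library left out, Clock passed only without the knockout library listed at 0. Clock is in these counts where it passed. Its genotype differences remain a description, since it entered the tests through knockout libraries alone. The relations to Arntl past the threshold were 2, 1 by Spearman's rho, 0 with group means kept, and 0 to 2 with each library left out. The cause of these changes was not tested.

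Over all genes, the calls for bicarbonate in wild type were 18 as reported, 9 with the length and GC trend removed, 5 in the compared groups only, 34 after quantile normalization, 2 with a replicate block, and 2 to 82 with each library left out, the highest without wild-type animal 4 on bicarbonate. Those for the interaction were 2, 4 with the length and GC trend removed or with no variance trend, 1 with a pseudocount of 1, and 1 to 5 with each library left out. Those for the drink averaged over genotypes were 57, 36 with no variance trend, 29 with a replicate block, and 17 to 95 with each library left out. The labels do not say whether replicate numbers pair the animals. Deviations of same-numbered libraries correlated at -0.097 to 0.105 over 24 pairs, with a median of 0.01, and 2 pairs were over 0.1. These correlations cannot settle whether same-numbered animals shared a litter, day or batch. The replicate block moved the 2 counts given above and changed no call of the 9 clock genes other than Clock.

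Signs turned only for differences that had not passed the test. With a pseudocount of 1, Arntl was 0.13 for the drink in wild type and -0.25 for genotype on bicarbonate. Quantile normalization gave -0.035 for Arntl and the drink averaged over genotypes, the length and GC correction gave -0.00738 for Per3 and genotype on water, and Nr1d2 for genotype averaged over drinks was 0.012 with median-of-ratios scaling and 0.10 after the length and GC correction. With each library left out, Arntl ran from -0.28 to 0.61 for the drink averaged over genotypes, from -0.00428 to 0.72 in the knockout and from -0.92 to 0.87 in wild type, from -0.51 to 1.28 for the interaction, and from -1.12 to 0.67 for genotype on bicarbonate and -0.86 to 0.030 averaged. For the drink, Clock ran from -0.32 to 0.067 in wild type, Npas2 from -0.031 to 0.20 in the knockout, Per3 from -0.13 to 0.078 in the knockout, Cry1 from -0.28 to 0.11 in the knockout, -0.33 to 0.22 in wild type and -0.21 to 0.063 averaged, Cry2 from -0.070 to 0.11 averaged, and Nr1d1 from -0.080 to 0.19 in the knockout and -0.10 to 0.030 averaged. For genotype, Cry1 ran from -0.55 to 0.00280 on bicarbonate, Per3 from -0.045 to 0.14 on water, and Npas2 from -0.43 to 0.17 and Nr1d2 from -0.072 to 0.037 averaged. For the interaction, Per1 ran from -0.16 to 0.028, Per2 from -0.15 to 0.66 and Cry1 from -0.31 to 0.24. The correlation with Arntl ran from -0.53 to 0.14 for Per1, -0.62 to 0.13 for Cry1 and -0.37 to 0.31 for Nr1d1.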
